A study of Mus musculus with 4 samples.

Results

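The pluripotency factor genes were examined in chromatin of mouse embryonic stem (mES) cells of the E14 line, which comes from strain 129P2/OlaHsd and was used untreated at passage 25 to 30. Fragments bound by antibody ab4441 against acetylated lysine 9 of histone H3 (H3K9ac), by the monoclonal antibody 13HH3-1A5 or by the monoclonal antibody 7G8, both against acetylated lysine 14 (H3K14ac), were sequenced beside input DNA. Each antibody and the input have 1 library, so there are 4 libraries and no replicates, and every interval given here covers counting error only. The methods describe blastocyst-derived wild type ES cells that were kept on feeder cells and then passed without feeders on gelatin, whereas the labels name the E14 line. The 10 genes were Pou5f1, Nanog, Sox2, Klf4, Esrrb, Tbx3, Zfp42, Prdm14, Tfcp2l1 and Tcl1, chosen by name, and all 10 were found among the 22367 protein-coding genes that GENCODE lists for mm9. Tfcp2l1 is listed there under its older name Tcfcp2l1. A tag is 1 mapped read, and 21626227 to 23837354 tags of the ChIP libraries and 19313142 tags of the input were used. Levels are tags per 10000000 tags of the library (per 10 M) within 2 kb on each side of the transcription start site (TSS), with exact 95% Poisson intervals. PCR reads without molecular identifiers are not independent molecules, and the intervals do not cover this.

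Pluripotent cells are held in their state by a set of transcription factors that bind together at enhancers, often at each other's genes. Oct4 (encoded by Pou5f1) and Sox2 bind DNA as a pair on a composite Sox-Oct element, and Nanog, Klf4, Esrrb and Tbx3 join them at many of these sites. Acetylation of histone H3 at lysines 9 and 14 is placed by histone acetyltransferases at active promoters and enhancers and is often read as a mark of open, transcribed chromatin. The paper also reports both marks at bivalent promoters, which carry the repressive mark H3K27me3 too, and H3K14ac at some inactive promoters. A peak alone therefore does not show transcription. Tcl1 is the exception in kind, since it encodes a coactivator of the kinase Akt and not a DNA-binding factor.

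All 10 genes carried H3K9ac at their promoter, whereas peaks of each H3K14ac antibody were called at some of them only. An H3K9ac peak lay within 2 kb of the TSS at 10 of the 10 genes, beside 65.0% of all protein-coding genes. A 13HH3-1A5 peak was present at 6 of them (28.1% of all genes), namely Sox2, Klf4, Esrrb, Tbx3, Zfp42 and Prdm14. A 7G8 peak was present at 5 (25.0% of all genes), namely Pou5f1, Klf4, Zfp42, Prdm14 and Tfcp2l1. A peak is a run of 400 bp windows whose tags exceed the local input rate at a Poisson probability of 1e-05, which was set after the local rate of MACS. The 7G8 count depended on the caller, with 1 gene at a probability of 1e-10 and 8 genes when the local rate was taken over 10 kb only. With a pseudocount of 1 tag per 10 M, levels of 2 times the input or more were reached at 9 genes for H3K9ac (54.4% of all genes), at 4 for 13HH3-1A5 (14.4%) and at 2 for 7G8 (14.7%). The interval of the ratio to input lay wholly above input at 10 genes in H3K9ac, at 7 with 13HH3-1A5 and at 8 with 7G8, beside 63.7%, 32.4% and 31.7% of all genes. These counts move with the processing, since the 7G8 interval at Klf4 included 0 with thinned libraries, at 0.55 (-0.05 to 1.16), and that of 13HH3-1A5 excluded 0 at Nanog and Tfcp2l1 with windows of 5 kb. Over the tags of the 10 genes together, H3K9ac stood 2.26 (2.12 to 2.40) above input on the log2 scale. The same sum gave 1.04 (0.88 to 1.19) with 13HH3-1A5 and 0.71 (0.55 to 0.87) with 7G8. With a pseudocount of 1 tag per 10 M, the median log2 ratio of the members was 2.02, 0.86 and 0.66 in that order, beside medians of 1.19, 0.31 and 0.31 over all genes.

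**Figure D1:**
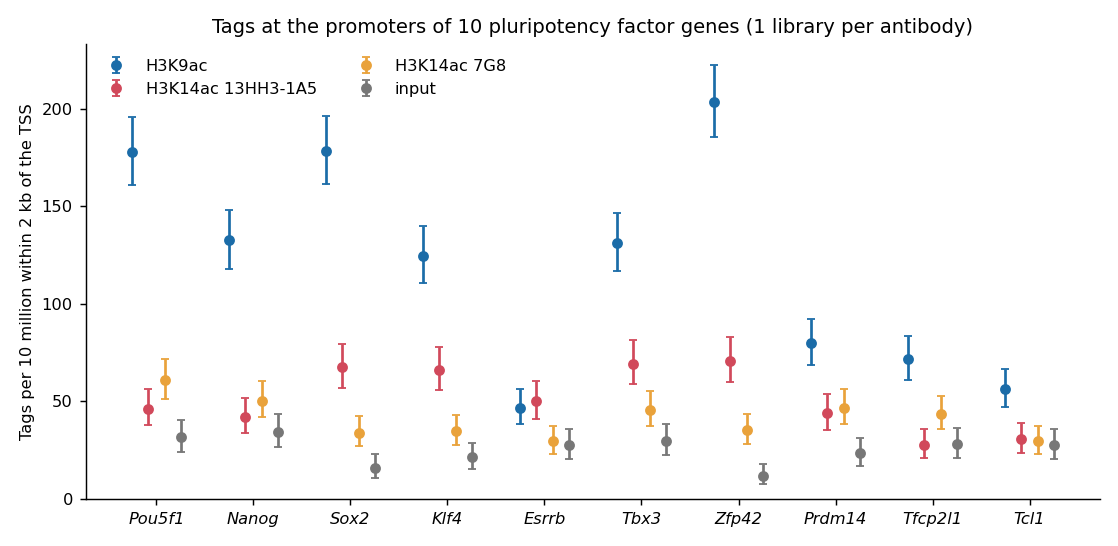
Tags per 10 M within 2 kb of the TSS (vertical axis) for each of the 10 genes in the 4 libraries, with points for the single library and bars for the exact 95% Poisson interval. H3K9ac is highest at Zfp42, Sox2 and Pou5f1 and lowest at Esrrb, where its level of 46.6 lies next to that of 13HH3-1A5 at 49.9.

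By its level before division by input, H3K9ac fell into steps over the promoters. Zfp42 stood highest at 203 tags per 10 M (185 to 222), followed by Sox2 at 178 (161 to 196) and Pou5f1 at 178 (161 to 196), and the intervals of these neighbours overlap. Nanog at 132 (118 to 148), Tbx3 at 131 (117 to 147) and Klf4 at 125 (111 to 140) overlap with each other, and lie below Pou5f1 and above Prdm14 with no overlap. Prdm14 at 79.8 (68.7 to 92.2), Tfcp2l1 at 71.6 (61.1 to 83.4), Tcl1 at 56.1 (46.9 to 66.6) and Esrrb at 46.6 (38.2 to 56.2) each overlap with the next. Among all genes, 6 of the 10 lie above the 90th percentile of the H3K9ac level, whereas Esrrb lies at the 46.6th. Over input, 2 of the 10, Zfp42 and Sox2, lie above the 90th percentile, and the step below Pou5f1 is gone, since Klf4 with 2.55 stands next to Pou5f1 with 2.49 and the interval of Pou5f1 overlaps those of Nanog, Tbx3 and Klf4. The step above Prdm14 is gone too, since its ratio of 1.78 (1.30 to 2.28) overlaps those of Nanog, Tbx3 and Klf4. Input tags differed between these windows, from 11.9 per 10 M at Zfp42 to 34.2 at Nanog, and the Nanog input lies at the 94.8th percentile of all genes.

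Pou5f1, Sox2 and Nanog form the centre of the network. Pou5f1 (chr17:35642982-35647721, plus strand) held 412 H3K9ac tags, 100 of 13HH3-1A5, 145 of 7G8 and 61 of input. H3K9ac was 2.49 (2.10 to 2.90) above input on the log2 scale, 7G8 0.95 (0.50 to 1.40) and 13HH3-1A5 0.55 (0.08 to 1.03). The 7G8 level of 60.8 tags per 10 M is at the 99.6th percentile of all genes, and its ratio over input is at the 82.8th. 7G8 exceeded 13HH3-1A5 there by 0.40 (0.02 to 0.78), but with libraries scaled by the tags outside peaks the log2 ratio of 13HH3-1A5 to 7G8 was -0.27 (-0.66 to 0.10), and within 1 kb of the TSS or with the libraries thinned to equal depth its interval included 0 too.

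Sox2 (chr3:34548927-34551383, plus strand, a gene within an intron of the noncoding gene Sox2ot) showed the opposite order of the H3K14ac antibodies. It held 413 tags of H3K9ac, 146 of 13HH3-1A5, 81 of 7G8 and 31 of input, so that the log2 ratios over input were 3.47 (2.94 to 4.05), 2.07 (1.51 to 2.68) and 1.08 (0.47 to 1.73). The 13HH3-1A5 ratio is at the 99.1st percentile of all genes. The ratio of 7G8 to H3K9ac was -2.39 (-2.75 to -2.04), at the 0.303rd percentile of the genes with an H3K9ac peak.

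Nanog (chr6:122657507-122664651, plus strand) has a promoter where the levels of all marks were high and so was the input. Its window held 307 tags of H3K9ac, 91 of 13HH3-1A5, 120 of 7G8 and 66 of input. The H3K9ac ratio was 1.95 (1.57 to 2.36), that of 7G8 was 0.56 (0.11 to 1.01), and the interval of 13HH3-1A5, 0.30 (-0.17 to 0.78), includes no difference from input, although it was clear of input with windows of 5 kb, at 0.68 (0.35 to 1.01). By level, 7G8 lies at the 98.2nd percentile of all genes and 13HH3-1A5 at the 89.6th, and by ratio over input they lie at the 64.1st and 48.5th. Of the positions in this window 92.0% begin a 36-base sequence that occurs once in the genome, against 99.7% at Pou5f1 and 99.9% at Sox2.

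Klf4, Esrrb, Tbx3, Prdm14 and Tfcp2l1 encode factors that act downstream of LIF signalling or sustain the naive state. Klf4 (chr4:55540013-55545347, minus strand) held 289 tags of H3K9ac, 143 of 13HH3-1A5, 83 of 7G8 and 41 of input, and its 13HH3-1A5 ratio of 1.64 (1.13 to 2.18) is at the 96.7th percentile. Tbx3 (chr5:120120678-120134733, plus strand), a T-box factor, held 304, 150, 109 and 57 tags in the same order, with ratios of 2.15 (1.74 to 2.59), 1.23 (0.78 to 1.70) and 0.63 (0.16 to 1.12). At both genes 13HH3-1A5 was the higher of the H3K14ac libraries, by 0.93 (0.53 to 1.33) at Klf4 and by 0.60 (0.24 to 0.97) at Tbx3.

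Prdm14 (chr1:13103538-13117244, minus strand), a PR-domain protein that holds back differentiation signals, held 185 tags of H3K9ac, 95 of 13HH3-1A5, 111 of 7G8 and 45 of input. Both H3K14ac libraries had a peak there, with ratios of 0.91 (0.39 to 1.46) and 1.00 (0.49 to 1.53), and their difference of -0.08 (-0.49 to 0.32) includes 0. Tfcp2l1 (chr1:120524522-120581744, plus strand), a Grainyhead-family factor, held 166, 60, 104 and 54 tags. Its 13HH3-1A5 ratio of -0.01 (-0.57 to 0.55) was at the level of input (0.39, 0.02 to 0.76, with windows of 5 kb), whereas 7G8 reached 0.64 (0.15 to 1.14) with a peak, and 13HH3-1A5 was lower than 7G8 by 0.65 on the log2 scale (interval of the ratio -1.14 to -0.18).

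Esrrb (chr12:87702067-87862578, plus strand), an orphan nuclear receptor, differed from the other 9 genes in the balance of 13HH3-1A5 and H3K9ac at its main start. Its window held 108 tags of H3K9ac, 108 of 13HH3-1A5, 71 of 7G8 and 53 of input. The log2 ratio of 13HH3-1A5 to H3K9ac was 0.10 (-0.30 to 0.50), at the 98.6th percentile of the genes with an H3K9ac peak, while the ratio of the other 9 genes ran from -1.94 to -0.86 with all intervals below 0. At the outermost annotated start of Esrrb, H3K9ac was at input with 0.01 (-0.64 to 0.67) over the same window. The median of all genes with an H3K9ac peak was -1.31. The ratio of 7G8 to H3K9ac did not set Esrrb apart, since its -0.65 (-1.10 to -0.20) overlaps with -0.71 (-1.08 to -0.35) at Tfcp2l1, -0.78 (-1.13 to -0.43) at Prdm14 and -0.91 (-1.35 to -0.48) at Tcl1.

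Zfp42 and Tcl1 are genes long used as markers of undifferentiated cells. Zfp42 (Rex1, a zinc finger protein, chr8:44380422-44392363, minus strand) held 471 tags of H3K9ac, 153 of 13HH3-1A5, 84 of 7G8 and 23 of input. Its ratios over input of 4.09 (3.49 to 4.76), 2.57 (1.93 to 3.27) and 1.57 (0.89 to 2.30) were the highest of the 10 genes in each ChIP library. Their intervals overlap those of Sox2 in each library. The ratios of H3K9ac and 13HH3-1A5 are at the 99.7th and 99.8th percentile of all genes. The Zfp42 window had the fewest input tags of the 10 and the lowest share of unique 36-base sequences, 89.9%. By level its 7G8 was not the highest, at 35.2 tags per 10 M against 60.8 at Pou5f1. Tcl1 (chr12:106454967-106460947, minus strand) held 130, 66, 71 and 53 tags, and only H3K9ac, at 1.03 (0.56 to 1.52), was clear of input.

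**Figure D2:**
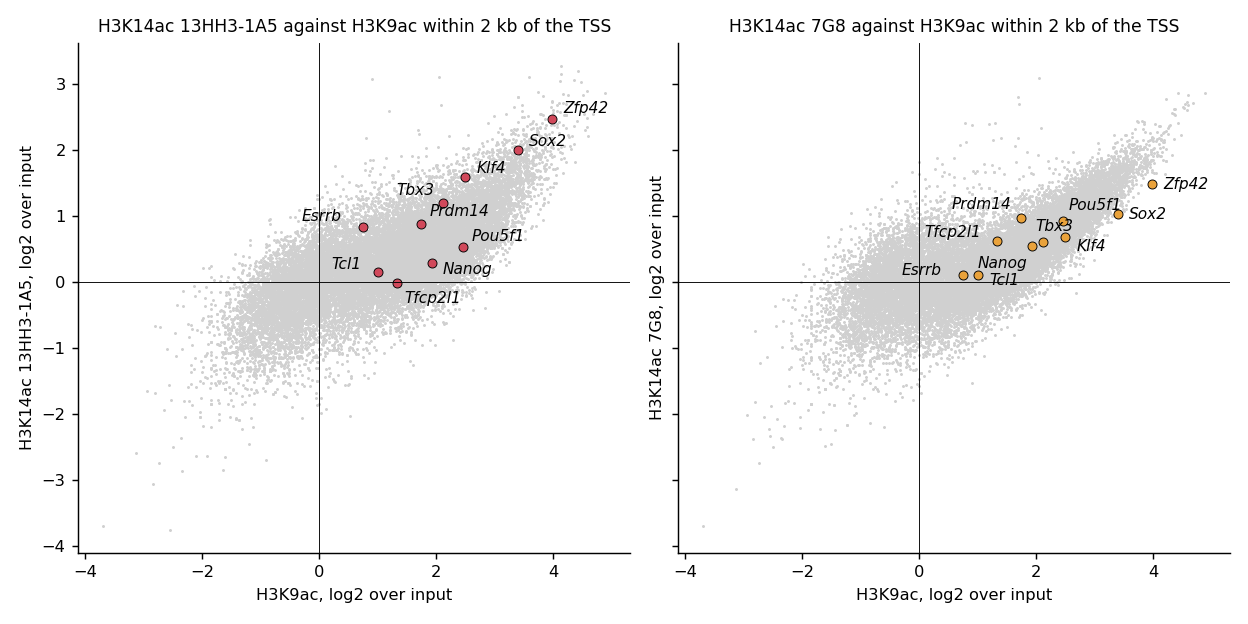
Log2 ratio over input within 2 kb of the TSS, with a pseudocount of 1 tag per 10 M, of H3K9ac (horizontal axis) against 13HH3-1A5 (left, vertical axis) and 7G8 (right, vertical axis). Grey points are all 22367 protein-coding genes and coloured points are the 10 genes, of which Esrrb lies high for its H3K9ac in the left panel and Zfp42 and Sox2 lie low for theirs in the right panel.

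The H3K14ac antibodies ranked the promoters differently. Relative to 7G8, the 13HH3-1A5 level was higher at 5 genes, with log2 ratios of 1.01 (0.61 to 1.41) at Zfp42, 0.99 (0.59 to 1.40) at Sox2, 0.93 at Klf4, 0.75 at Esrrb (lower bound 0.30) and 0.60 at Tbx3. The interval came to include 0 at Tbx3 within 1 kb of the TSS, at 0.44 (-0.14 to 1.03), and at Esrrb from its outermost start, at 0.50 (-0.02 to 1.03). Over all genes, 13HH3-1A5 was higher with a clear interval at 10.7% and lower at 8.23%. It was lower at Tfcp2l1 and, with the reservation above, at Pou5f1, and the interval includes 0 at Nanog, Prdm14 and Tcl1. With 1 library per antibody, a difference between the antibodies and a difference between the preparations cannot be told apart.

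Tags were counted before and after the TSS to locate the marks within the promoter. H3K9ac tags were more numerous in the 2 kb after the TSS than in the 2 kb before it at 7 of the 10 genes, with intervals clear of equality, and at no gene was the reverse seen. Over all genes, 39.6% had clearly more H3K9ac after the TSS and 10.0% clearly more before it. These counts were not divided by input. At Zfp42 there were 318 tags after the TSS and 153 before it, and at Esrrb 80 and 28. At Klf4 there were 165 and 124, while its input leaned the same way with 25 tags after the TSS and 16 before it. At Pou5f1, with 208 after and 204 before, and at Sox2, with 205 and 208, H3K9ac was alike on both sides within counting error, while the input of Sox2 was uneven with 9 tags after the TSS and 22 before it. 13HH3-1A5 followed with more tags after the TSS at 6 genes (31.1% of all genes), but at Tbx3 it held 95 tags before the TSS and 55 after it, an order seen with a clear interval at 6.08% of all genes. Input at Tbx3 leaned the same way, with 34 tags before the TSS and 23 after it. For 7G8, with more tags after the TSS at 21.1% of all genes, Nanog had more tags after the TSS (75 against 45) and Tfcp2l1 fewer (37 against 67, an order seen at 7.43% of all genes), where the input was also uneven with 15 after and 39 before. The other 8 genes had no clear side in 7G8.

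The width of the acetylated stretch set 3 genes apart. The H3K9ac peak at the TSS spanned 10100 bp at Zfp42, 8200 bp at Sox2 and 6900 bp at Pou5f1, each above the 99th percentile of the genes with a peak. The others ran from 3500 bp at Prdm14 down to 700 bp at Esrrb and 400 bp at Tcl1, which is the narrowest peak that the windows allow. Within 30 kb on each side of the TSS, H3K9ac peaks covered 45.7% of the sequence at Pou5f1, 38.2% at Zfp42 and 35.96% at Sox2, but 3.17% at Tcl1. The start of another gene, Tcf19, lies within this span of Pou5f1, and so does coding sequence of Cchcr1.

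The content of CpG dinucleotides at these promoters was spread widely. It ran from 18 in the 1 kb around the TSS of Nanog (the 32.2nd percentile of all genes) to 116 at Klf4 (the 96.6th). Zfp42, with the highest H3K9ac and 13HH3-1A5, had 28 CpGs (the 41.5th percentile), and Sox2 had 86 (the 85.7th). The promoters with the highest H3K9ac thus differed in CpG content, with Zfp42 near the middle of all genes and Sox2 in the upper part.

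**Figure D3:**
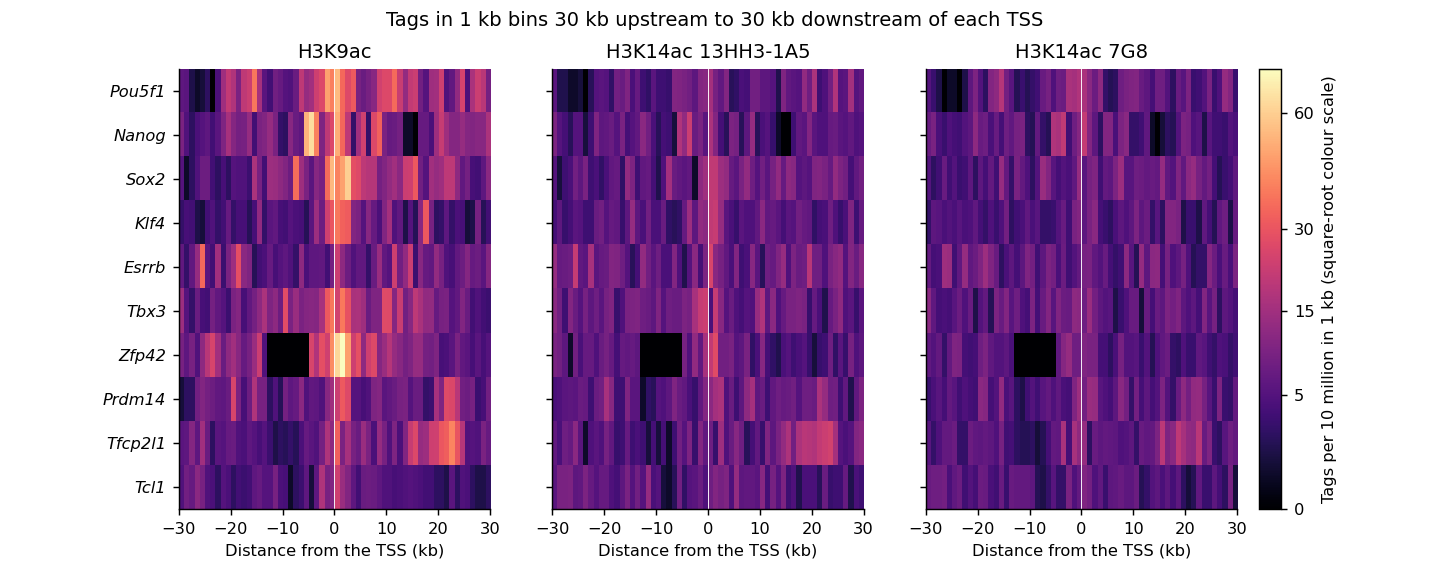
Tags per 10 M in 1 kb bins from 30 kb upstream to 30 kb downstream of each TSS (horizontal axis, kb along the direction of transcription) for the 10 genes (rows) in the 3 ChIP libraries (panels), on a square-root colour scale. H3K9ac shows the upstream block of Nanog at 64.3 tags per 10 M, the intron block of Tfcp2l1 near 22 kb, and black bins without tags upstream of Zfp42, where few 36-base sequences are unique.

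The sequence around the genes, with promoters and gene bodies included, was examined in 1 kb bins. Over the 600 bins of the 10 genes, the interval of the ratio to input lay wholly above input in 239 bins for H3K9ac (39.8%), in 113 for 13HH3-1A5 (18.8%) and in 76 for 7G8 (12.7%). The same bins around all genes gave 17.3%, 6.61% and 4.97% in that order. For H3K9ac the count per gene ran from 7 of 60 at Tcl1 to 40 of 60 at Zfp42. Bins from 13 to 5 kb upstream of Zfp42 held no tags in any library, and at most 12.5% of their 36-base sequences are unique, so nothing can be said about them.

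Oct4 and Sox2 bind the composite element in the enhancers of their own genes. The Sox-Oct pair was searched as TTGTNATGC on both strands. It occurs within 250 bases before the TSS of Nanog, a window in which 0.572% of all protein-coding genes hold it, in the upstream enhancer window of Pou5f1, and in the Sox2 enhancer window SRR2. These last windows are 2 kb long, and 4.68% of the 2 kb windows before all TSSs hold a match. No match lies in the upstream enhancer window of Nanog, in SRR1 of Sox2 or in any of the 10 regions away from main starts described further on. The sequences are shown because acetylation was counted across them, read from NCBIM37 (mm9) on the plus strand, which is the strand of all 3 genes, with the match in capitals.
Nanog, chr6:122657257-122657506: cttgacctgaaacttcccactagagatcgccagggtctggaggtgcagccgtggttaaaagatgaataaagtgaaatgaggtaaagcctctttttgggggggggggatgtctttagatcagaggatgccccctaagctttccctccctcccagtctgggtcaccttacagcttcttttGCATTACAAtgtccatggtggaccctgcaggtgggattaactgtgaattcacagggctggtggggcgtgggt
Pou5f1, chr17:35640938-35641066: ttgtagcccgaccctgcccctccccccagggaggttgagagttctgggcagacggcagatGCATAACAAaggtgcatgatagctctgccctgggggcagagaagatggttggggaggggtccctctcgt
Sox2, chr3:34552913-34553041: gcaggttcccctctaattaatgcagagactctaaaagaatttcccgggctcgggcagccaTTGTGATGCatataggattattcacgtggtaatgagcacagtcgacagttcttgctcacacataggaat

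Tags over these elements were few, and whether they differ from the sides was not tested. In Nanog the match lies at -72 bases from the TSS, and the 500 bases centred on it, which also hold the TSS, gave 23 H3K9ac tags, against 37 in the 500 bases before and 64 in those after, and 4 tags of 13HH3-1A5 against 8 and 22. In SRR2 of Sox2 the match lies 4046 bases after the TSS, where H3K9ac gave 23 tags against 41 and 37 on its sides, and 13HH3-1A5 gave 2 against 23 and 10. A second match at Nanog, at 1085 bases after the TSS, gave 50 H3K9ac tags between 64 and 50. At Pou5f1 the match at -1984 bases from the TSS held 40 H3K9ac tags between 33 and 63, while 13HH3-1A5 held 7 against 8 and 15, and 7G8 held 20 between 24 and 19. Input gave 12 tags on the first element of Nanog between 6 and 15, 2 on that of Sox2 between 2 and 1, and 5 on that of Pou5f1 between 6 and 5.

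The window from 3 to 1 kb upstream of Pou5f1, which holds its proximal and distal enhancers, was marked by H3K9ac and 7G8 and hardly by 13HH3-1A5. It held 172 tags of H3K9ac, 36 of 13HH3-1A5, 76 of 7G8 and 21 of input. The log2 ratios over input were 2.77 (2.11 to 3.50), 0.61 (-0.20 to 1.46) and 1.55 (0.84 to 2.32), with no 13HH3-1A5 peak in the window. Scaling by the tags outside peaks gave 13HH3-1A5 0.83 (0.01 to 1.68). This window shares its last 1 kb with the promoter window.

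The window from 6 to 4 kb upstream of Nanog had a higher ratio over input than the Nanog promoter in all 3 ChIP libraries, clearly so in H3K9ac only. It held 271 tags of H3K9ac, 65 of 13HH3-1A5, 81 of 7G8 and 23 of input over 2 kb, against 307, 91, 120 and 66 over the 4 kb of the promoter. The ratios of 3.30 (2.68 to 3.98), 1.34 (0.63 to 2.09) and 1.51 (0.83 to 2.25) compare with 1.95, 0.30 and 0.56 at the promoter. The intervals do not overlap for H3K9ac, whereas those of both H3K14ac antibodies do. The highest 1 kb bin of H3K9ac within 30 kb of the gene lay here, 5 to 4 kb upstream, with 149 tags against 15 of input.

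The enhancers on either side of Sox2 were unequal. SRR2, 3 to 5 kb downstream, held 128 tags of H3K9ac, 43 of 13HH3-1A5, 24 of 7G8 and 7 of input, and the ratios were 3.93 (2.84 to 5.27), 2.46 (1.29 to 3.85) and 1.47 (0.22 to 2.93). SRR1, 5 to 3 kb upstream, held 39, 26, 21 and 11 tags, with ratios of 1.56 (0.57 to 2.68), 1.08 (0.01 to 2.24) and 0.63 (-0.49 to 1.83). With the libraries thinned to equal depth the interval of 13HH3-1A5 at SRR1 included 0 (-0.03 to 2.25). H3K9ac thus differed between them with no overlap of the intervals, whereas those of both H3K14ac antibodies overlap.

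Regions away from the main starts were then set beside the promoters. For each gene, the H3K9ac peak within 120 kb with the most tags above scaled input was taken among those more than 2 kb from the main TSS of every protein-coding gene. H3K9ac and the input chose these regions, so H3K9ac levels and every ratio over input or to H3K9ac there are a description. The levels of 13HH3-1A5 and 7G8 themselves were not used in the choice. The Esrrb region covers another annotated start of that gene. A region is assigned to a gene by distance only.

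**Figure D4:**
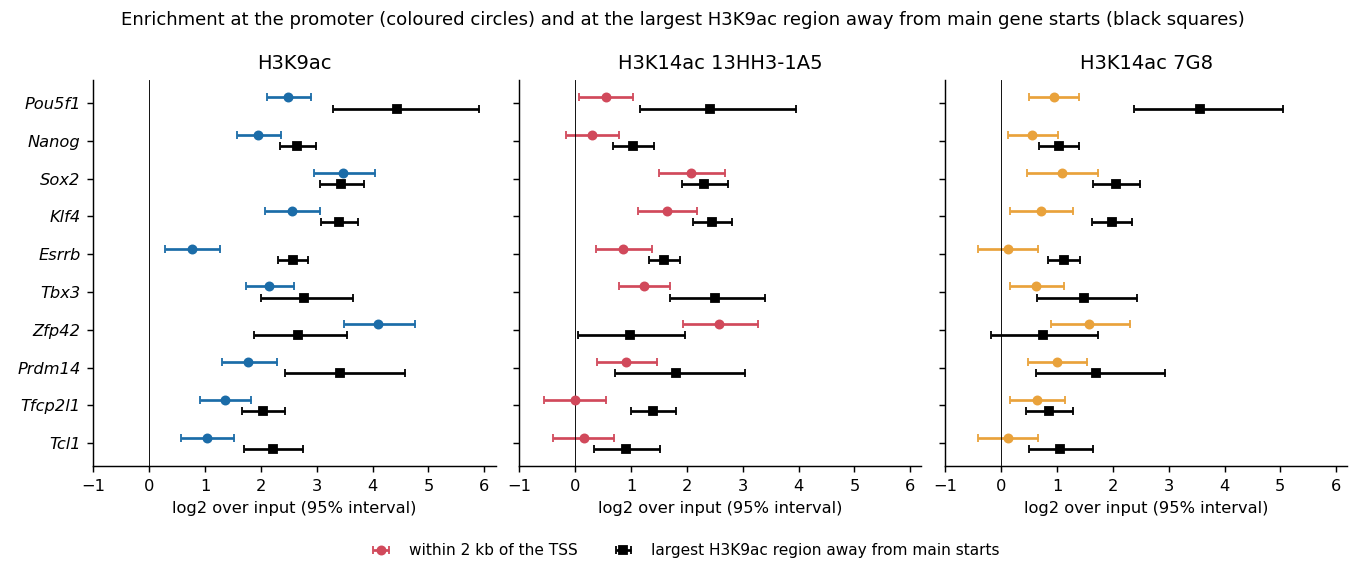
Log2 ratio over input (horizontal axis) with exact 95% intervals at the promoter window (coloured circles) and at the largest H3K9ac region away from main gene starts (black squares) for the 10 genes (rows) in the 3 ChIP libraries (panels). The distal value of both H3K14ac antibodies lies to the right of the promoter value at 9 genes and to the left at Zfp42, with input, which helped to choose the regions, lower per kb there than at the promoter at 8 genes.

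By level per kb, the order of region and promoter varied from gene to gene. 13HH3-1A5 was higher in the region than at the promoter at 6 of the 10 genes, with a clear interval at 3, Klf4, Tfcp2l1 and Tcl1, and lower at 4, with a clear interval at 3, Pou5f1, Zfp42 and Prdm14. When a region was chosen in the same way for each of the 18625 genes that have one, 13HH3-1A5 was clearly higher in it at 55.3% and clearly lower at 4.45%. Only 14536 protein-coding genes have an H3K9ac peak at the promoter, as all 10 do, so the 18625 genes are not all like them. 7G8 was higher at 7 genes, with a clear interval at 4, Sox2, Klf4, Esrrb and Tcl1 (56.8% of those genes), and lower at 3, with a clear interval at Prdm14 (2.09%). Input per kb was lower in the region at 8 genes, at Pou5f1 1.41 against 7.90 tags per 10 M, and the ratios over input stood higher in the region at 9 genes in both H3K14ac libraries. The regions are 1950 to 14850 bp wide, and a promoter window is 4000 bp.

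Klf4 has the strongest of these regions by tags. It spans 9750 bp between genes (chr4:55485601-55495350), centred 54.9 kb downstream of the TSS, and held 1025 tags of H3K9ac, 496 of 13HH3-1A5, 395 of 7G8 and 81 of input. The ratios were 3.40 (3.07 to 3.74), 2.45 (2.11 to 2.81) and 1.98 (1.63 to 2.35), against 2.55, 1.64 and 0.71 at the promoter. It touches 3 peaks of 13HH3-1A5 and 5 of 7G8, of which the widest, 4000 bp and 3250 bp, lie in its middle.

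Sox2 has a region of 9100 bp (chr3:34653451-34662550), centred 109 kb downstream of the TSS and between genes, which coincides with the known distal control region of Sox2 in ES cells. It held 755 tags of H3K9ac, 323 of 13HH3-1A5, 298 of 7G8 and 58 of input, with ratios of 3.44 (3.05 to 3.85), 2.31 (1.91 to 2.74) and 2.06 (1.65 to 2.49). The H3K9ac and 13HH3-1A5 ratios lie near the promoter values of 3.47 and 2.07. Over the whole region the log2 ratio of 13HH3-1A5 to H3K9ac was -1.12 (-1.32 to -0.93). In the single bin from 109 to 110 kb the level of 13HH3-1A5, 51.3 tags per 10 M, came close to that of H3K9ac at 57.4, while 7G8 stood at 26.4. In the bins on either side 13HH3-1A5 stood at 16.2 against 31.1 of H3K9ac and at 9.71 against 34.5.

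Esrrb acts on a nuclear receptor element, searched here as TCAAGGTCA on both strands. Of the 10 regions 5 hold it, with 3 matches at Sox2, 2 at Nanog and 1 each at Klf4, Esrrb and Tcl1. Windows of the same length centred on all TSSs hold at least 1 match in 22.2% for Sox2, 18.3% for Nanog, 23.7% for Klf4, 33.5% for Esrrb and 6.93% for Tcl1. For the regions without a match the share is 4.78% for Pou5f1 and Prdm14, 4.11% for Tbx3 and Zfp42 and 11.8% for Tfcp2l1. These windows lie at starts and the regions away from main starts, so the shares are not of like sequence. Those of Sox2 and Klf4 are shown with 40 bases on each side on the strand of the gene, from NCBIM37 (mm9), plus for Sox2 and minus for Klf4, with the match in capitals, because they lie in the distal regions of Sox2 and Klf4 just described.
Sox2, chr3:34655468-34655556: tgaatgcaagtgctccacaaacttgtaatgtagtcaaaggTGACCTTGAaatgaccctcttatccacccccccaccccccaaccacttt
Sox2, chr3:34656842-34656930: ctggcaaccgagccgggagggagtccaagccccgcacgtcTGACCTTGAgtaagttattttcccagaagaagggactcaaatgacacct
Sox2, chr3:34659456-34659544: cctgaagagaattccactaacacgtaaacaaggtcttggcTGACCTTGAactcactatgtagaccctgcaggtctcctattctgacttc
Klf4, chr4:55489257-55489345: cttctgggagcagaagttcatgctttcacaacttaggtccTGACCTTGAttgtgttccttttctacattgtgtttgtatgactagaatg

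The 500 bases around these matches held 26, 60 and 29 H3K9ac tags in the Sox2 region, in the order shown, and 56 in the Klf4 region. The flanks held more at the first match of Sox2 (52 and 71 tags), at the third (60 and 41) and at the Klf4 match (73 and 104), whereas the second lay between flanks of 75 and 37. 13HH3-1A5 gave 10, 19, 12 and 33 tags on the 4 matches.

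Esrrb was acetylated on both sides of its main start, which lies 60527 bp downstream of its outermost start. In an intron 26 to 25 kb upstream of the main start, a 1 kb bin held 81 tags of H3K9ac, 46 of 13HH3-1A5 and 4 of input. It was the highest bin of both libraries within 30 kb, outside the promoter window. An H3K9ac peak of 14850 bp (chr12:87810401-87825250) lies 55.2 kb downstream of the main start and covers another annotated start of the gene, 48473 bp downstream. It held 965 tags of H3K9ac, 457 of 13HH3-1A5, 362 of 7G8 and 135 of input, and the ratios were 2.57 (2.31 to 2.84), 1.60 (1.32 to 1.88) and 1.12 (0.83 to 1.42). A further H3K9ac peak of 9250 bp (chr12:87841001-87850250) in an intron 83.0 kb downstream held 823 tags against 82 of input, and contained a 13HH3-1A5 peak of 2550 bp with 204 tags and a 7G8 peak of 2450 bp with 136 tags. No start is annotated there for Esrrb.

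Within 500 bases on each side of the inner start, H3K9ac was 2.35 (1.58 to 3.21) above input, 13HH3-1A5 1.36 (0.51 to 2.28) and 7G8 1.16 (0.30 to 2.08). At the main start the same window gave 1.07 (0.28 to 1.92), 0.98 (0.17 to 1.85) and -0.16 (-1.13 to 0.82). At the outermost start, 60527 bp upstream, all 3 intervals included 0. In the region of 14850 bp around the inner start, which was chosen for its H3K9ac, the log2 ratio of 13HH3-1A5 to H3K9ac was -0.98 (-1.14 to -0.82).

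**Figure D5:**
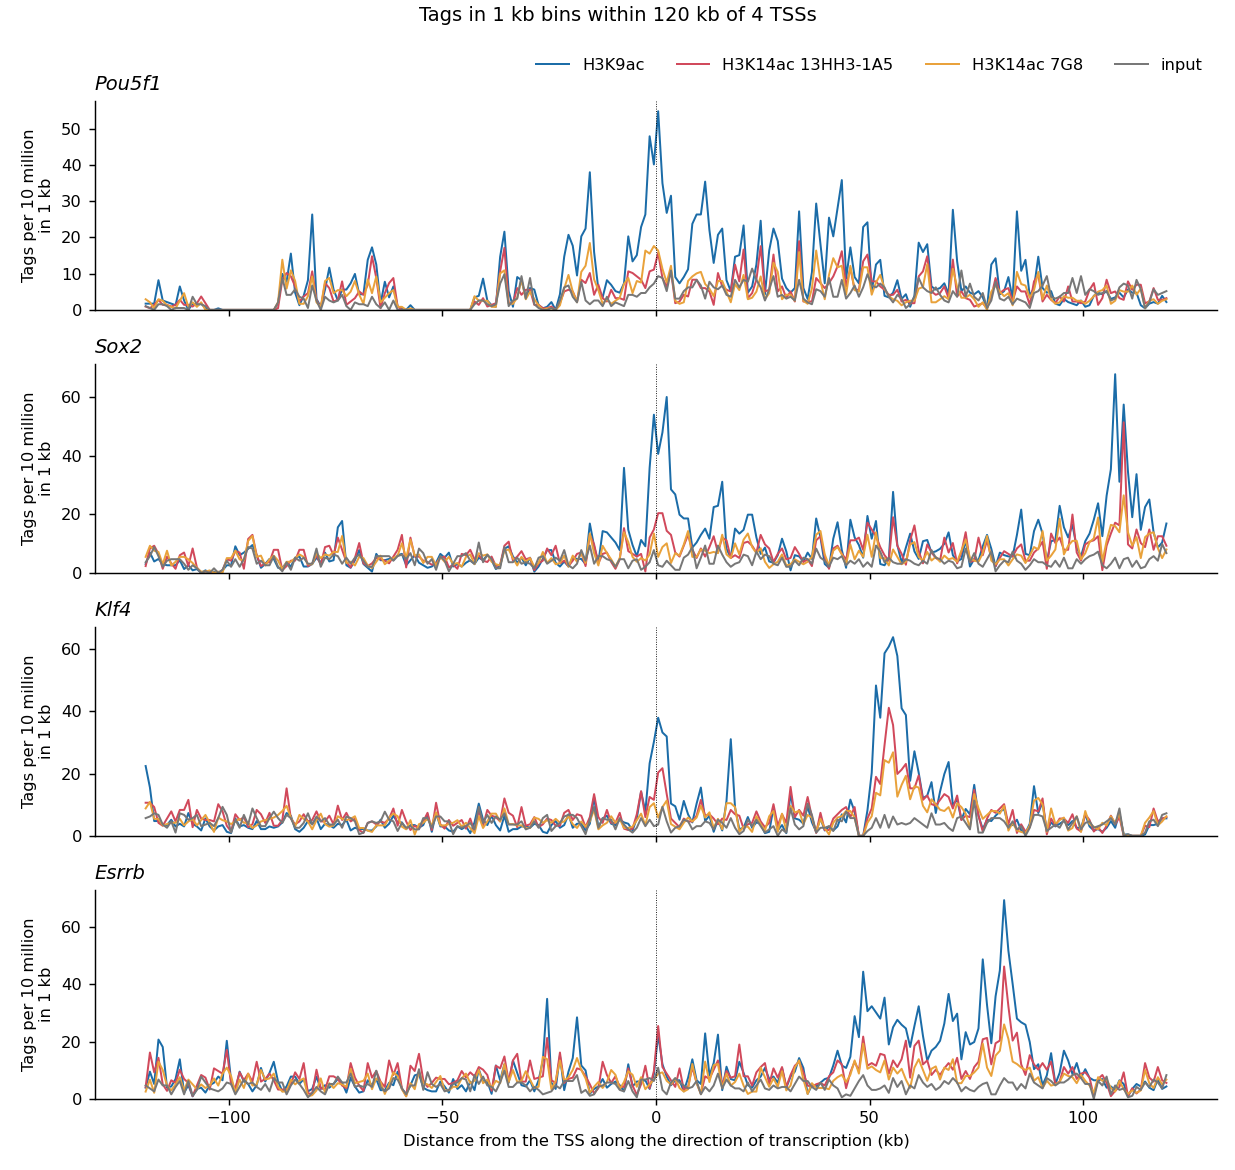
Tags per 10 M in 1 kb bins (vertical axis) from 120 kb upstream to 120 kb downstream of the TSSs of Pou5f1, Sox2, Klf4 and Esrrb (horizontal axis, kb along the direction of transcription) in the 4 libraries. All 3 ChIP libraries rise above input at the distal regions of Sox2, Klf4 and Esrrb, and at Pou5f1 the highest bins are those of H3K9ac next to the TSS.

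At Pou5f1 7G8 was the higher H3K14ac library in the region upstream. This region, 15.5 kb from the TSS (chr17:35626351-35628550, between genes), held 156 tags of H3K9ac, 36 of 13HH3-1A5, 87 of 7G8 and 6 of input. The ratios were 4.44 (3.28 to 5.91), 2.42 (1.16 to 3.96) and 3.55 (2.37 to 5.04), and 13HH3-1A5 was lower than 7G8 with a log2 ratio of -1.13 (-1.74 to -0.56). No 13HH3-1A5 peak touched the region, and its level per kb there was 7.57 tags per 10 M against 11.6 at the promoter. Within 120 kb of Pou5f1 there were 42 H3K9ac peaks, 8 of 13HH3-1A5 and 15 of 7G8.

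Tfcp2l1 had more 13HH3-1A5 away from the start than at it, with 20.2 tags per 10 M per kb against 6.94. In Tfcp2l1 a region of 4750 bp in an intron (chr1:120543901-120548650), 21.8 kb downstream of the TSS, held 350 tags of H3K9ac, 208 of 13HH3-1A5, 159 of 7G8 and 71 of input. Its 13HH3-1A5 ratio was 1.39 (0.99 to 1.80) against -0.01 at the promoter, and here 13HH3-1A5 exceeded 7G8 by 0.53 (0.22 to 0.84), the reverse of the promoter. In Tbx3 a region of 1950 bp (chr5:120037851-120039800), 81.9 kb upstream, held 123 tags of H3K9ac, 95 of 13HH3-1A5, 52 of 7G8 and 15 of input, and 13HH3-1A5 was close to H3K9ac with a log2 ratio of -0.27 (-0.67 to 0.13). Its level per kb there, 22.5 against 17.3 at the promoter, was not clearly higher, with a log2 ratio of 0.38 (-0.01 to 0.76).

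The other 4 genes had the following regions. That of Nanog, 56.5 kb downstream (chr6:122710351-122717750), lies in an intron of Slc2a3, a glucose transporter gene, with 679, 207, 227 and 90 tags, and the H3K14ac antibodies did not differ there (0.01, -0.27 to 0.29). That of Tcl1, 114 kb upstream, lies on an exon of the noncoding gene 2810011L19Rik with 206, 78, 95 and 37 tags. That of Prdm14, 56.8 kb downstream and between genes, held 115, 35, 36 and 9 tags, with a high H3K9ac ratio of 3.41 (2.44 to 4.58). At Zfp42 H3K9ac was above input on both sides of the promoter window, in 16 of the 28 bins upstream and 20 of the 28 downstream within 30 kb. Its region 7.09 kb downstream, in its own intron, held 114, 33, 31 and 15 tags with no peak of either H3K14ac antibody.

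The octamer, searched as ATGCAAAT on both strands, was found within 250 bases before the TSS at Zfp42 among the 10 genes, and 1.65% of all genes hold it in this window. The Zfp42 window is shown because this promoter carried the highest ratios over input of all 10 promoters. The sequence is read from NCBIM37 (mm9) on the minus strand, which is the strand of the gene, with the match in capitals.
Zfp42, chr8:44392364-44392613: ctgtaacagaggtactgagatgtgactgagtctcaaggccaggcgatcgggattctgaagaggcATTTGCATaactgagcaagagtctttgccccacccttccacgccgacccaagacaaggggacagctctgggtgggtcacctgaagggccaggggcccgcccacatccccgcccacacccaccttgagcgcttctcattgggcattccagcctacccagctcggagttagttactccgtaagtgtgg
The 500 bases centred on this match held 43 H3K9ac tags, against 51 upstream and 100 downstream. Among the promoter windows of all 10 genes, the Esrrb element was found at Tfcp2l1 alone, with 2 matches, and 9.85% of all promoter windows of 4000 bases hold it.

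Along the gene bodies, from 2 kb downstream of the TSS to the 3′ end, H3K9ac was above input at 9 of the 10 genes, 13HH3-1A5 at 7 and 7G8 at 6, beside 45.8%, 24.2% and 15.7% of all genes with such a body. For 7G8 the lower bound barely cleared input at Nanog (0.001), Sox2 (0.015) and Tfcp2l1 (0.002). The Sox2 body is 0.457 kb long and held 9 tags of each H3K14ac antibody against 1 of input. In Esrrb, with the longest body of 98.0 kb, the ratios were 1.89 (1.79 to 2.00), 1.25 (1.14 to 1.36) and 0.83 (0.72 to 0.95), each higher than at its main start, with no overlap of the intervals for H3K9ac and 7G8. By level per kb 13HH3-1A5 was not higher in the body, at 11.2 against 12.5. In Tfcp2l1, over 55.2 kb, they were 0.82 (0.68 to 0.96), 0.59 (0.45 to 0.73) and 0.15 (0.00 to 0.30). Zfp42 reached 2.85 (2.46 to 3.27) in H3K9ac, while Tcl1 lay at input with -0.09 (-0.64 to 0.45), or at 0.55 (0.16 to 0.96) when counted from the TSS. In the body of Pou5f1 H3K9ac stood at 1.72 (1.19 to 2.28) and both H3K14ac antibodies at input, where 13HH3-1A5 gave -0.02 (-0.69 to 0.67) and 7G8 gave 0.10 (-0.54 to 0.76).

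Within 120 kb of the 10 genes there were 291 peaks of H3K9ac, 184 of 13HH3-1A5 and 113 of 7G8. Of the 13HH3-1A5 peaks 70.1% touched an H3K9ac peak, and of the H3K9ac peaks 31.3% touched one of 13HH3-1A5. In the whole genome these shares were 47.3% and 27.1%. For 7G8 the shares were 90.3% and 26.5%, beside 67.3% and 19.2% in the whole genome. Between the H3K14ac antibodies, 27.2% of the 13HH3-1A5 peaks touched a 7G8 peak and 46.9% of the 7G8 peaks touched one of 13HH3-1A5, beside 21.2% and 40.8% in the whole genome. Of the 13HH3-1A5 peaks, 1 of 8 around Pou5f1, 2 of 29 around Tbx3 and 8 of 17 around Klf4 touched a 7G8 peak. Of the 7G8 peaks, 2 of 15, 2 of 5 and 10 of 11 in the same order touched one of 13HH3-1A5.

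Other transcription factor genes of ES cells were counted for comparison. Of 22 such genes 21 had an H3K9ac peak, 10 a 13HH3-1A5 peak and 12 a 7G8 peak, beside 65.0%, 28.1% and 25.0% of all genes. Beside medians of 1.19, 0.31 and 0.31 over all genes, their median log2 ratios were 2.50, 0.67 and 0.98. Among them Mybl2, a regulator of cell cycle genes, held 578 tags of H3K9ac, 217 of 13HH3-1A5, 177 of 7G8 and 40 of input, and Klf2, a relative of Klf4, held 302, 165, 89 and 37. Klf2 had 76.3 tags per 10 M of 13HH3-1A5 and 37.3 of 7G8, the same order as at Klf4. Klf5, another relative, held 62 tags in both libraries, or 28.7 against 26.0 per 10 M, so this difference was not seen there. Zscan4c held 7, 3, 6 and 1 tags, and with 1 input tag nothing can be said about its acetylation.

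Genes of later lineages were counted too. Of 12 such genes 11 had an H3K9ac peak, 4 a 13HH3-1A5 peak and 2 a 7G8 peak, beside 65.0%, 28.1% and 25.0% of all genes. Their median log2 ratios of 0.98, 0.38 and 0.21 lie near the medians of all genes, 1.19, 0.31 and 0.31. Gata6, a factor of primitive endoderm, held 153 tags of H3K9ac, 117 of 13HH3-1A5, 68 of 7G8 and 41 of input. The 13HH3-1A5 ratio of 1.31, with the pseudocount, was the highest of this list.

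The cells had been kept on feeder cells, so the promoters of 10 fibroblast genes were counted. H3K9ac peaks lay at 5 of them and a peak of each H3K14ac antibody at 1, beside the same 65.0%, 28.1% and 25.0% of all genes. With the pseudocount, no gene reached 2 times the input in any ChIP library. Without it Col1a1 did so in H3K9ac, with 47.9 tags per 10 M against 23.8 of input. The summed log2 ratios of the 10 genes were 0.57 in H3K9ac, 0.20 in 13HH3-1A5 and 0.08 in 7G8. The genes with an H3K9ac peak were Col1a1, Thy1, Twist2, Fbln2 and Pdgfrb. Of these, Twist2 had the highest level with 72.9 tags per 10 M and Col1a1 the highest log2 ratio, 0.98 with the pseudocount. Col3a1, Lum and Dcn held 25, 17 and 19 H3K9ac tags against 26, 24 and 18 of input. Dcn also held 32 tags of 13HH3-1A5 and 41 of 7G8, the highest ratios over input of this list in both H3K14ac libraries. The part of feeder cells in the other results was not tested.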

How the data were processed

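Chromatin of untreated mES cells gave 3 ChIP libraries and an input library. The authors mapped single-end reads of 36 bases with ELAND, allowing 1 mismatch, to mm9 and deposited 1 line per mapped read. The deposited values are positions, not a score or a normalised level, and counts, ratios and intervals were computed here. H3K9ac, 7G8 and input hold no repeated position and strand, whereas 738619 tags (3.30%) of 13HH3-1A5 do and were removed. How repeats were removed from the other files is not given in the sources used here.

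The autosomes 1 to 19, X and Y entered the counts, with each tag placed at its 5′ end and shifted by 100 bases towards the fragment's middle. The TSS was the 5′ end shared by most protein-coding transcripts, with ties settled by the longest transcript. Tags were counted within 2 kb of it, in gene bodies and in 1 kb bins. Ratios were scaled by the total tags and given with exact conditional (Clopper-Pearson) intervals, at 95%. Percentiles used a pseudocount of 1 tag per 10 M. Peaks followed the local rate of MACS, with scaled input in 1, 5 and 10 kb, since MACS was not run here. With 1 library per antibody no test was made. The peak caller, the intervals and the search for unique 36-base sequences were tested on simulated data.

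The 10 genes and the other gene lists were chosen with earlier results of these data known. All 10 genes are named, and other genes only where they stand in a list or at a described region; of each list, those named were chosen after their values were seen. The windows of enhancers were set from textbook positions in whole kb. Shares over all genes and all peaks and the levels per kb of the regions were added after the data were seen. The regions away from starts and the motif matches shown were chosen after the data were seen. Sequences come from NCBIM37 (mm9), and the name Tcfcp2l1 was matched through RefSeq synonyms (GRCm38.p6). Python 3.11.15, numpy 2.4.6, scipy 1.17.1, numba 0.67.0 and matplotlib 3.10.9 were used.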

Additional observations from a re-analysis of the deposited data

How the results depend on the processing

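No ratio whose interval was clear of 0 changed sign under any alternative tried. For single genes, the interval came to include 0 for 13HH3-1A5 to 7G8 at Pou5f1 under 3 alternatives, at Tbx3 with windows of 1 kb and at Esrrb from its outermost start, and over input for 7G8 at Klf4 and 13HH3-1A5 at SRR1 with thinned libraries and for H3K9ac at the outermost start of Esrrb. It came to exclude 0 over input for 13HH3-1A5 at the Nanog promoter under 2 alternatives, at Tfcp2l1 with windows of 5 kb and at the Pou5f1 enhancers with the scaling outside peaks, and in the bodies of Prdm14 for 7G8 and of Tcl1 for H3K9ac when counted from the TSS. Scaling by tags in 10 kb bins without peaks raised the summed promoter ratio to 2.76 for H3K9ac and 1.25 for 13HH3-1A5 and lowered the ratio of 13HH3-1A5 to H3K9ac, summed over the 10 genes, from -1.22 to -1.51. Promoter windows of 5 kb lowered that of H3K9ac to 2.08, and gene bodies counted from the TSS raised the summed H3K9ac ratio of the bodies from 1.57 to 1.71. The number of genes with a 7G8 peak at the promoter was 1 at a threshold of 1e-10 and 8 with the local rate of 10 kb only, against 5. It moved by less than 1.5 times for 13HH3-1A5 and H3K9ac under every alternative tried, and the 12 values of the enhancer windows stayed within their own intervals under the 3 alternatives tried. No paired analysis was possible because each antibody has 1 library. Depth limits the regions of under 10 input tags most, such as SRR2 of Sox2 and the region upstream of Pou5f1, where the intervals span more than 2 on the log2 scale.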
